A study of Homo sapiens with 4 samples.

Results

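The keratin-associated protein (KRTAP) genes were examined for the histone variant macroH2A1 in IMR90 cells, a line of primary human lung fibroblasts. The members were all protein-coding genes of the hg19 annotation whose symbol starts with KRTAP. Symbols and spans were those of GENCODE release 44 on GRCh37, the same build as hg19. The members numbered 94 of 20098 annotated protein-coding genes: 34 on chromosome 17, 49 on chromosome 21 and 11 on the other autosomes, all 11 on chromosome 11. The set and its division by chromosome were chosen by the deposited log2 ratios themselves, so these ratios are described below and carry no test. Of 4 samples, 2 were macroH2A1 chromatin immunoprecipitations (ChIP), which the submitters' design calls biological replicates, and 2 were inputs. All came from cells grown in medium with serum, crosslinked with 1% formaldehyde and sheared to about 500 bp, and the labels name no further treatment. For each ChIP replicate the genome had been divided into segments, and every segment carried the log2 of its ChIP signal relative to input together with a −log10 p. No separate values of the inputs are used here. A log2 ratio of 0 marks equal ChIP and input after the authors' scaling. No transcript level was measured, so the labelled cell type was not checked against marker genes.

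Keratin-associated proteins are small proteins that surround and crosslink the keratin filaments of the hair shaft, and they are made by keratinocytes of the hair cortex and cuticle. They fall into high-sulphur and ultrahigh-sulphur families, rich in cysteine, and high glycine-tyrosine families. Their genes lie side by side in a few clusters, and the cluster on chromosome 17 sits within the type I keratin genes. MacroH2A1 carries a large macro domain behind its histone fold and is known for broad domains over the inactive X chromosome and over genes that are not in use.

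The promoters of these genes shared a sequence feature that was common on chromosomes 17 and 21 alike. RefSeq promoters (GRCh38.p14, 250 bases before to 50 after the start) were found for 80 of the 94 genes, and the hexamer TATAAA, searched on both strands, stood in 64 of them (80%). It stood in 29 of 33 promoters on chromosome 17 (87.9%) and in 34 of 45 on chromosome 21 (75.6%), against 9.47% of 22199 protein-coding promoters of the same length. On the sense strand, starting 40 to 20 bases before the start, it stood in 15 of 33 and 18 of 45, against 3.05% of all protein-coding promoters. The median number of CpG dinucleotides was 2 on each of these chromosomes, against 21. Median GC content was 42% and 43%, against 62.3%, and its part in the hexamer counts was not tested. Some promoters were near copies and so not separate occurrences. The 100 bases before the start were compared position by position, without gaps. KRTAP9-6 and KRTAP9-7 were identical at 92% of positions, and KRTAP4-8 and KRTAP4-11 at 90%. The highest such value on chromosome 21 was 57%, but copies at another distance from the start escape this measure. KRTAP12-1 and KRTAP12-2 share a long stretch around the hexamer, which begins 35 and 34 bases before the start. KRTAP10-2 and KRTAP10-10 on chromosome 21, and KRTAP2-1, KRTAP2-2 and KRTAP2-4 on chromosome 17, also share shifted stretches. Near copies were therefore not counted on either chromosome. To show the hexamer, the 100 bases before the start are printed for 2 genes per cluster of chromosomes 17 and 21. They are the first and last along the cluster that held it 40 to 20 bases before the start and had 1 exact match in hg19. The 2 matched genes of chromosome 11 follow, of which KRTAP5-9 held no such hexamer. Coordinates are of hg19 (GRCh37), each sequence runs 5′ to 3′ on the strand of the gene, and capitals mark the hexamer where it begins 40 to 20 bases before the start.
KRTAP1-5 (chr17:39183461-39183560, minus strand): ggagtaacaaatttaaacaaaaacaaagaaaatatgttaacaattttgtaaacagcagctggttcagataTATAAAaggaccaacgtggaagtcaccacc
KRTAP17-1 (chr17:39471963-39472062, minus strand): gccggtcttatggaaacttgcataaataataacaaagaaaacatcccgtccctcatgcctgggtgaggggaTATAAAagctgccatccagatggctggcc
KRTAP24-1 (chr21:31655269-31655368, minus strand): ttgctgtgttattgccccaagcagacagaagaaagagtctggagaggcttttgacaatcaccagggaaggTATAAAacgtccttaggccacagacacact
KRTAP11-1 (chr21:32253900-32253999, minus strand): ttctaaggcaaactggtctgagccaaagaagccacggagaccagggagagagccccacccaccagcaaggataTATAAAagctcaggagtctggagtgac
KRTAP10-3 (chr21:45978679-45978778, minus strand): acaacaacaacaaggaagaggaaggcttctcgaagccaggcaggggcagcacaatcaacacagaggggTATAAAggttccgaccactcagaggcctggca
KRTAP12-1 (chr21:46102079-46102178, minus strand): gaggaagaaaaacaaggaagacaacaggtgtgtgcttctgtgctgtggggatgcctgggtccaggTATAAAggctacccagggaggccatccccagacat
KRTAP5-3 (chr11:1629694-1629793, minus strand): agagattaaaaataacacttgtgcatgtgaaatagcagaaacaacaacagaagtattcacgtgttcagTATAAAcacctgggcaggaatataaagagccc
KRTAP5-9 (chr11:71259366-71259465, plus strand): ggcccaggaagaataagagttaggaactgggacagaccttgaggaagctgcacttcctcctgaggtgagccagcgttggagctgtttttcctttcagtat

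Every KRTAP gene on chromosome 17 lay in macroH2A1-enriched chromatin in both replicates, and no KRTAP gene on chromosome 21 did. Enriched segments were those above 0 on the log2 scale whose −log10 p reached 2. A gene counted as covered when segments enriched in both replicates took at least 50% of its assayed bases. By this rule 34 of 34 genes on chromosome 17, 0 of 49 on chromosome 21 and 7 of 11 on chromosome 11 were covered, beside 19.2% of 19517 measured protein-coding genes. Without the KRTAP genes, the covered share was 19.8% on chromosome 17, 16.1% on chromosome 21 and 16.2% on chromosome 11. Since the values chose the grouping, nothing is read from these contrasts. Each covered gene was covered to 100% and each of the other 53 to 0, as were 69.5% of all measured genes.

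The median log2 ratio of the 34 genes on chromosome 17 was 1.03 in replicate 1 and 0.91 in replicate 2 (0.97 ± 0.09, SD, n = 2). The 49 genes on chromosome 21 had medians of -0.70 and -0.80 (-0.75 ± 0.07, SD, n = 2). The difference between these medians, chromosome 21 minus chromosome 17, was -1.72 ± 0.02 (SD, n = 2). The ranges that follow only describe groups that these values chose. They rest on 1 segment of chromosome 17 and 4 of chromosome 21 in replicate 1, and on 3 each in replicate 2. In replicate 1 every gene on chromosome 17 lay at 1.03 while those on chromosome 21 ran from -0.89 to 0.07. In replicate 2 chromosome 17 ran from 0.38 to 1.12 and chromosome 21 from -0.80 to -0.0010. The medians of the 11 genes on chromosome 11, 0.39 and 0.21, lay between, but single genes overlapped both other groups. In replicate 2, KRTAP5-2 to KRTAP5-6 (0.72) exceeded the chromosome 17 genes at 0.38, and KRTAP5-7 and KRTAP5-8 (-0.36) lay below the second cluster of chromosome 21 (-0.0010). Over all measured protein-coding genes the medians were -0.88 and -0.75, so the median on chromosome 21 was near that of all genes. The median on chromosome 17 was not. The chromosome 21 median is the segment value of its first cluster, whereas the 16 genes of its second cluster had medians of -0.24 and -0.0010. Of all measured genes, 96.6% lay at or below the median of chromosome 17, 80.9% at or below that of chromosome 11 and 51.7% at or below that of chromosome 21.

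**Figure D1:**
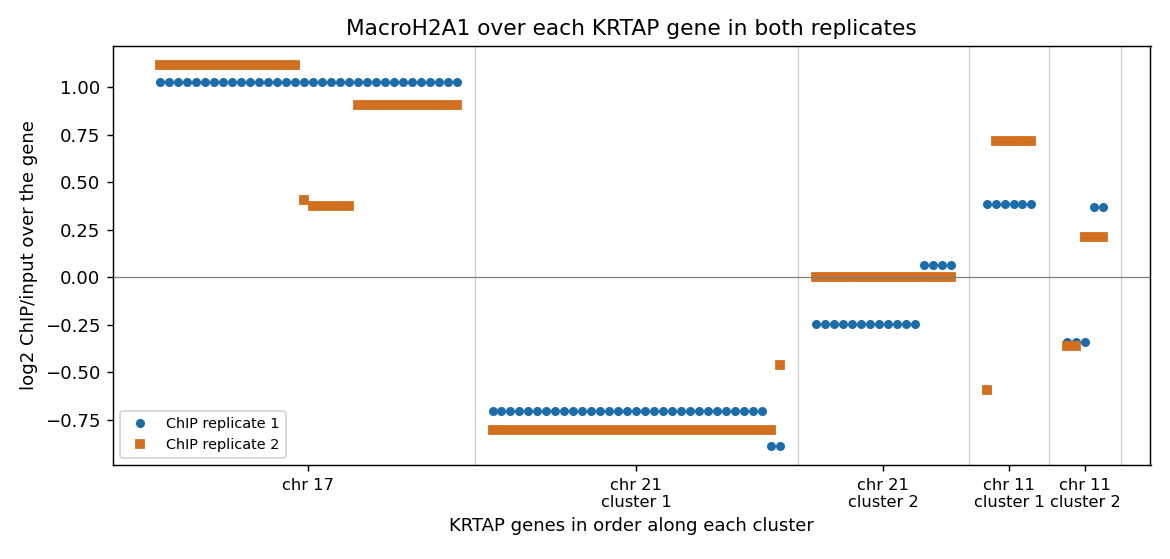
Log2 ratio of ChIP over input (vertical axis) for each of the 94 KRTAP genes in order along their clusters (horizontal axis), with circles for replicate 1 and squares for replicate 2. The 34 genes on chromosome 17 sit between 0.38 and 1.12, and genes of the same segment share 1 value.

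The 94 genes are not 94 measurements. Their median length was 859 bases, whereas the deposited value is a mean over a segment far longer than a gene, and all genes in a segment take its value. In replicate 1 the 94 genes read 8 segments, and in replicate 2 they read 10. The genes of chromosome 17 read 1 and 3 of these, those of chromosome 21 read 4 and 3, and those of chromosome 11 read 3 and 4. All 94 genes were assayed over 100% of their span. The deposited tables carry no read counts, so the only error that can be given is the spread between the 2 replicates.

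The chromosome 17 cluster (17:39149682-39471962, hg19) ran over 322 kb from KRTAP3-3 to KRTAP17-1. In replicate 1 a single segment of 552 kb (17:39004583-39556775) held all 34 genes at a log2 ratio of 1.03. Of the 46951 segments of replicate 1, 492 were at least as long. Of these 492, 95 were enriched and 13 had a higher log2 ratio. Replicate 2 divided the same stretch into 3 enriched segments: 272 kb at 1.12, 55.3 kb at 0.38 and 226 kb at 0.91, with −log10 p of 157, 4.03 and 87.6. Of the 25583 segments of replicate 2, 1957, 12535 and 2560 were at least as long as these 3, in order. Among those, 65, 4010 and 215 had a higher log2 ratio. The middle segment of replicate 2 was thus the weakest over the cluster, and it was the one closest to the threshold.

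The families on chromosome 17 followed that order. The high-sulphur genes KRTAP1 (4 genes), KRTAP2 (4 genes) and KRTAP3 (3 genes) all lay at 1.03 in replicate 1 and 1.12 in replicate 2 (1.07 ± 0.06, SD, n = 2). KRTAP3-3, the first gene of the cluster, was among them. The ultrahigh-sulphur KRTAP4 family of 12 genes was divided by the first boundary in replicate 2. KRTAP4-11 (17:39273433-39274625) lay at 1.12 in that replicate and KRTAP4-6 (17:39295685-39296796) at 0.38, while both lay at 1.03 in replicate 1. KRTAP4-12 between them held the boundary, after base 39279385, and averaged 0.41 in replicate 2. It was the only member with a segment boundary inside it. The other boundary, after base 39334643, separated KRTAP4-2 (0.38) from KRTAP4-1 (0.91) in replicate 2. From KRTAP4-1 onwards the KRTAP9 family (8 genes, ultrahigh-sulphur), KRTAP29-1, KRTAP16-1 and KRTAP17-1 lay at 1.03 and 0.91 (0.97 ± 0.09, SD, n = 2). The lowest mean in the cluster, that of KRTAP4-6 and its neighbours up to KRTAP4-2, was 0.70.

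The enriched stretch reached well past the cluster and took in the hair keratin genes on both sides. Enriched segments followed each other without a break over 809 kb in replicate 1 (17:39004583-39813652) and 783 kb in replicate 2 (17:39007266-39790168). In both replicates the stretch wholly held 55 protein-coding genes, of which 34 were KRTAP genes and 21 keratin genes, from KRT12 to KRT17. It began 145 and 142 kb before the first KRTAP gene and ended 342 and 318 kb after the last. Among all 2019 runs of neighbouring measured genes that were each covered, this one of 55 genes was exceeded by 1 run on chromosome X (144 genes) and equalled by another there. The nearest protein-coding genes wholly outside it lay low: KRT10, the type I keratin of differentiating epidermis (17:38974369-38978866), at -1.22 and -1.45, and EIF1, a translation initiation factor, at -2.27 and -0.75. KRT40 and KRT33A, the hair keratins next to the cluster on either side, lay at 1.03 and 1.12 and at 1.03 and 0.91, the values of the adjoining KRTAP genes.

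**Figure D2:**
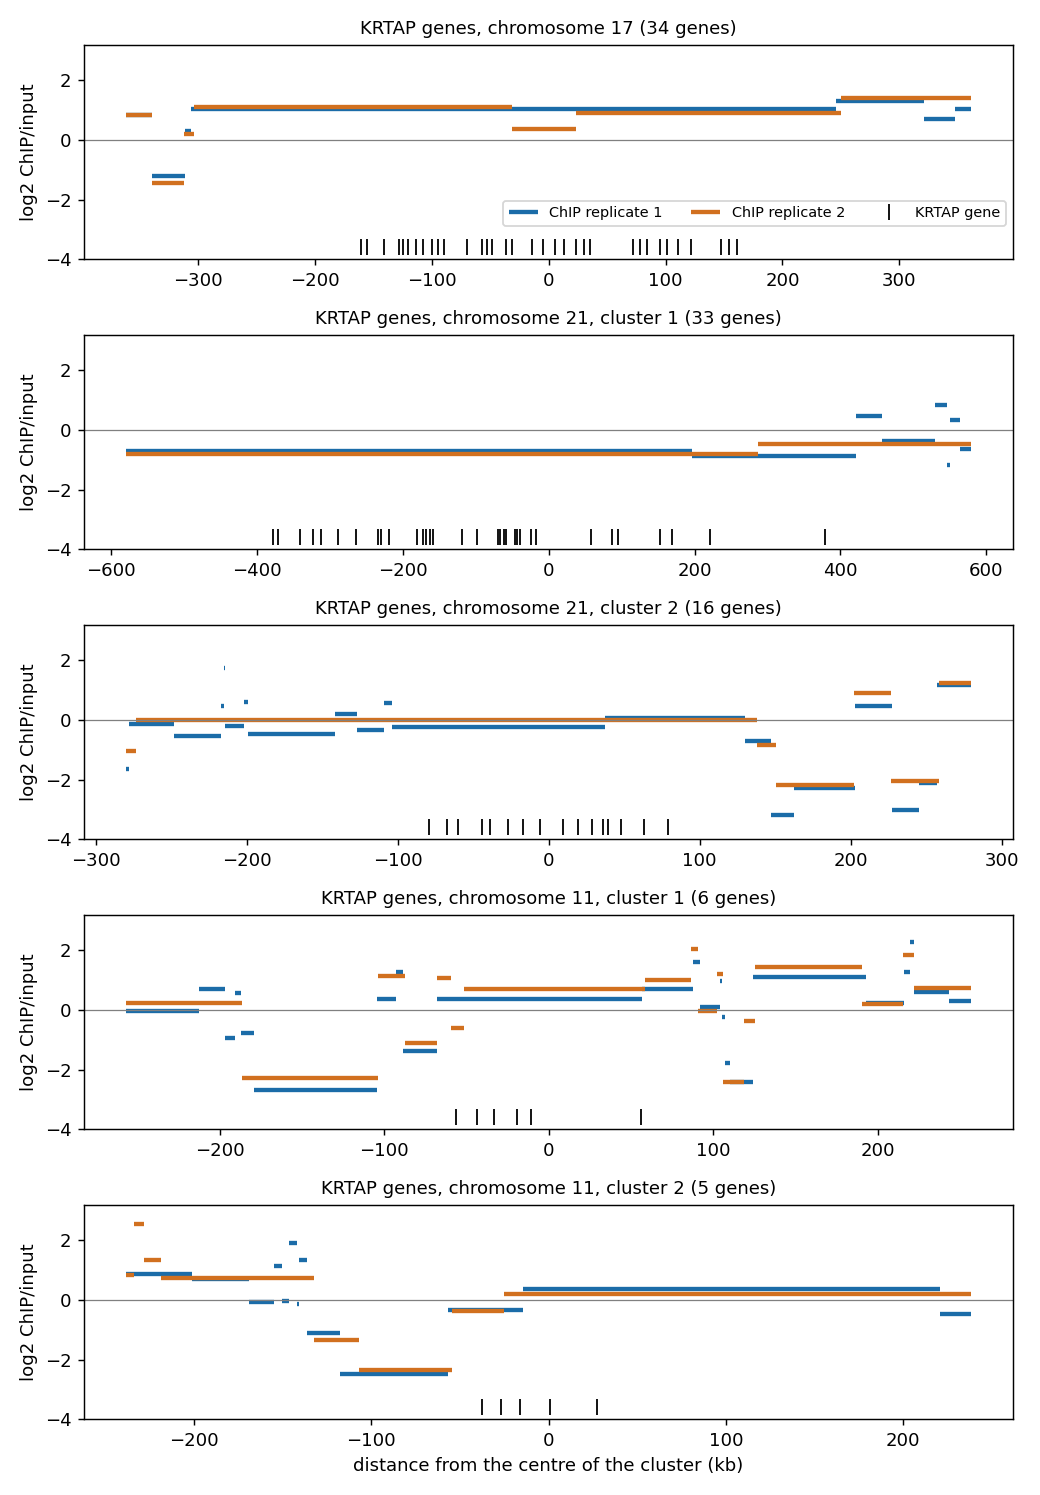
Log2 ratio of ChIP over input (vertical axis) of each deposited segment, gaps included, against the distance in kb from the centre of each of the 5 KRTAP clusters and 200 kb on either side, for replicate 1 (blue) and replicate 2 (orange). Black marks are KRTAP genes. The chromosome 17 cluster lies in a plateau above 0 in both replicates, the first chromosome 21 cluster in a plateau below 0, and the second near 0.

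Chromosome 21 held 2 KRTAP clusters at different levels. The first (21:31653627-32410795) ran over 757 kb from KRTAP24-1 to KRTAP19-8 and held 33 genes, and the second (21:45958864-46117959) held 16 genes in 159 kb. Averaged over assayed bases, the first lay at -0.75 in replicate 1 and -0.76 in replicate 2, the second at -0.16 and -0.0010. The values of the first were lower than those of the second in both replicates.

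In the first cluster of chromosome 21 all 33 genes had log2 ratios below 0 in both replicates, as did 69.7% of all measured genes. A segment of 854 kb in replicate 1 (21:31374505-32228199) set 31 of these genes to -0.70, and one of 1060 kb in replicate 2 (21:31259874-32319568) set 32 to -0.80. The cluster held all 22 high glycine-tyrosine genes: the KRTAP6, KRTAP7, KRTAP8, KRTAP19, KRTAP20, KRTAP21 and KRTAP22 families. It also held 11 high-sulphur genes, KRTAP11, KRTAP13, KRTAP15 and KRTAP23 to KRTAP27. KRTAP24-1, the first gene, lay at -0.70 and -0.80 (-0.75 ± 0.07, SD, n = 2). KRTAP11-1 (21:32252963-32253899) was lowest by mean, at -0.89 and -0.80, and lay just past the replicate 1 boundary that follows KRTAP7-1 (-0.70 and -0.80). KRTAP19-8, the last gene and the highest by mean, lay at -0.89 and -0.46, past the only boundary of replicate 2. The boundaries of the replicates were 91.4 kb apart, and the steps across them, -0.18 in replicate 1 and 0.34 in replicate 2, went in opposite directions.

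The stretch of negative values around this cluster ran over 1203 kb in replicate 1 and 1957 kb in replicate 2. CLDN8, a claudin of tight junctions and the nearest gene before the cluster at 65.2 kb, lay in the same segments at -0.70 and -0.80. TIAM1, an activator of the GTPase RAC and the nearest gene after it at 79.9 kb, lay at 0.15 in both replicates and was covered to 31.6%. The cluster closed a run of 37 neighbouring measured genes covered to 0, from GRIK1 to KRTAP19-8, and 14 of 2901 such runs were at least as long, itself included.

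The second cluster of chromosome 21 held the high-sulphur KRTAP10 family (12 genes) and KRTAP12 family (4 genes). In replicate 1 the 12 genes from KRTAP10-1 to KRTAP12-4 lay at -0.24, and KRTAP12-3, KRTAP12-2, KRTAP12-1 and KRTAP10-12 at 0.07. That last segment had a −log10 p of 1.09 and was the positive segment just outside the threshold. In replicate 2 a single segment of 411 kb put all 16 genes at -0.0010, so the 4 genes above 0 in replicate 1 had the opposite sign there. All 16 genes lay within the span of TSPEAR (21:45917776-46131487), a gene linked to tooth and hair development, whose own values were -0.15 and -0.0010. KRTAP10-4 overlapped an exon of TSPEAR and the other 15 did not. LRRC3, 76.8 kb before the cluster, lay at -0.47 and -0.0010. UBE2G2, a ubiquitin-conjugating enzyme gene 70.5 kb after the cluster, lay far lower, at -2.62 and -2.16.

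Genes of the same class therefore differed by cluster. Of the 34 genes on chromosome 17, 12 were classed as high-sulphur and 21 as ultrahigh-sulphur, so not every gene had a class. The high-sulphur ones ran from 0.91 to 1.12 in replicate 2. The 12 high-sulphur genes on chromosome 17 had medians of 1.03 and 1.12, the 11 in the first cluster of chromosome 21 had -0.70 and -0.80, and the 16 in the second had -0.24 and -0.0010. Among ultrahigh-sulphur genes, 21 of 21 on chromosome 17 and 7 of 11 on chromosome 11 were covered, beside 19.2% of measured protein-coding genes. Those on chromosome 17 read 1 and 3 segments in the replicates, and those on chromosome 11 read 3 and 4. The high glycine-tyrosine class had 0 of 22 covered, from 2 segments in each replicate, and 69.5% of all measured genes were likewise covered to 0. This class lay only in the first cluster of chromosome 21, so its class and its position cannot be told apart.

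Chromosome 11 held the ultrahigh-sulphur KRTAP5 family in 2 clusters, and the boundaries of enrichment fell among its genes. In the first (11:1605572-1718985, 6 genes) replicate 1 had 1 enriched segment at 0.39 over all genes. Replicate 2 put KRTAP5-1 at -0.59, in a segment of 7.63 kb with a −log10 p of 1.66, and KRTAP5-2 to KRTAP5-6 at 0.72. The segment directly before that of KRTAP5-1 lay at 1.08 in replicate 2, so this gene stood in a short dip. KRTAP5-1 was thus enriched in replicate 1 alone, and the other 5 genes were covered. DUSP8, a phosphatase gene 12.1 kb before this cluster, lay at -1.38 and -1.11, and IFITM10, 34.6 kb after it, at -0.02 and -0.21. In the second (11:71238313-71314399, 5 genes) the log2 ratio stepped up along the cluster in both replicates, by 0.71 and 0.57, at boundaries 10.8 kb apart. KRTAP5-7 and KRTAP5-8 lay before both boundaries, at -0.34 and -0.36. KRTAP5-9 (11:71259466-71260654) lay between the boundaries, at -0.34 in replicate 1 and 0.21 in replicate 2. KRTAP5-10 and KRTAP5-11 lay past both, at 0.37 and 0.21, and were covered. NADSYN1, an enzyme of NAD synthesis 3.16 kb before this cluster, lay at -2.10 and -1.99. XNDC1N-ZNF705EP-ALG1L9P, 202 kb after it, lay at -0.15 and -0.34 and was covered to 34.8%. KRTAP5-1 and KRTAP5-9 were the only 2 of the 94 genes whose call differed between the replicates.

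Other genes of hair formation were taken from 3 lists. All 17 hair keratins, the filament proteins that KRTAP proteins crosslink, were covered: 11 type I genes on chromosome 17 (medians 1.03 and 1.12) and 6 type II genes on chromosome 12 (0.68 and 0.80). The highest were KRT32, KRT37 and KRT38 at 1.32 and 1.42 (1.37 ± 0.07, SD, n = 2), and the lowest KRT82 and KRT84 at 0.16 and 0.37 (0.26 ± 0.15, SD, n = 2). Of 9 keratins of the root sheaths 5 were covered, with KRT27 and KRT28 on chromosome 17 highest at 0.83 in both replicates. KRT71 to KRT74 on chromosome 12 lay at -0.12 and 0.37 and were not covered. Of 14 regulators and other hair proteins 6 were covered. DLX3, a homeobox factor of hair and tooth (1.30 and 0.98), and PADI3, an enzyme that citrullinates hair proteins (1.07 and 0.99), were highest. LPAR6, a lysophosphatidic acid receptor (-1.53 and -1.98), and MSX2, a homeobox factor (-1.30 and -0.71), were lowest. All these counts stand beside the 19.2% of measured genes that were covered. The hair keratins of chromosome 17 share segments with each other and in part with the KRTAP genes. Keratins of chromosome 12 are not separate measurements either: the 6 type II hair keratins read 4 segments in each replicate. KRT75 had the values of KRT82 and KRT84, and KRT85 and KRT71 to KRT74 also lay at 0.37 in replicate 2.

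**Figure D3:**
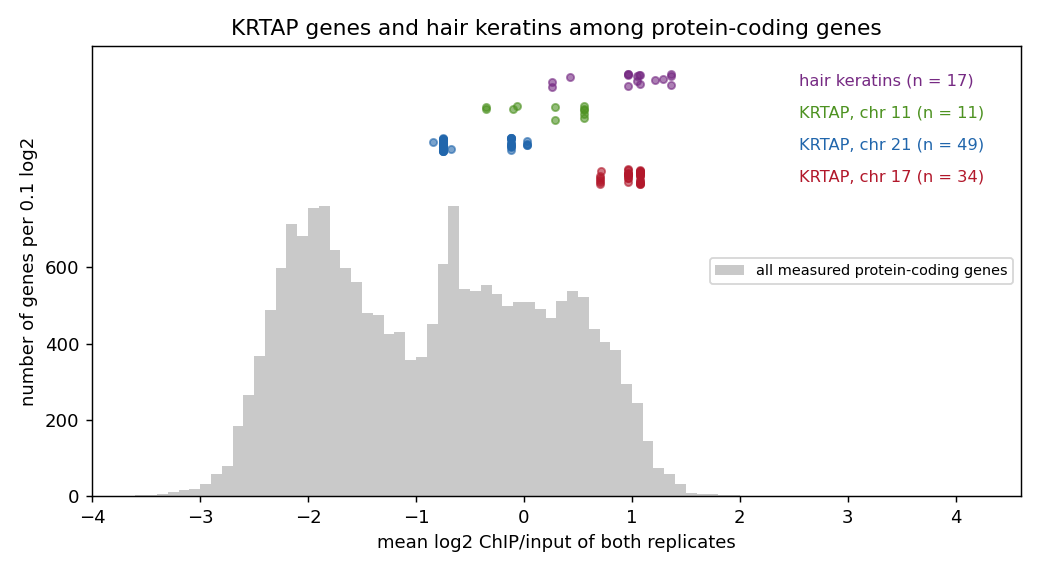
Number of measured protein-coding genes per 0.1 log2 (grey bars, vertical axis) by the mean log2 ratio of both replicates (horizontal axis). Points above the bars are single genes, spread vertically for visibility, of the KRTAP groups and the hair keratins. The chromosome 17 genes lie in the upper tail, at medians of 1.03 and 0.91 in the replicates. The chromosome 21 genes lie near the middle in the first cluster and above it in the second.

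Base composition and repeated sequence also differed between the clusters. The GC content was 40.2% over the chromosome 17 cluster, 37.2% and 47.9% over the first and second cluster of chromosome 21, and 51.4% and 48.0% over those of chromosome 11. Near-identical copies can share reads, so each 31-base word of the clusters was counted in the whole hg19 genome on both strands. Words found more than once made up 21.5% of the chromosome 17 cluster, 8.81% and 14.9% of those on chromosome 21, and 25.1% and 32.9% of those on chromosome 11. The median gene had 29.6% of its words repeated on chromosome 17, 0 in the first and 34.2% in the second cluster of chromosome 21. On chromosome 17 the share was at least 50% in 7 of 34 genes, among them KRTAP9-2 at 92.6% and KRTAP9-8 at 84.9%, so values assigned to these copies singly are uncertain. The part of GC content and repeats in the log2 ratios was not tested, and the read length is not given in the sources used here.

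**Figure D4:**
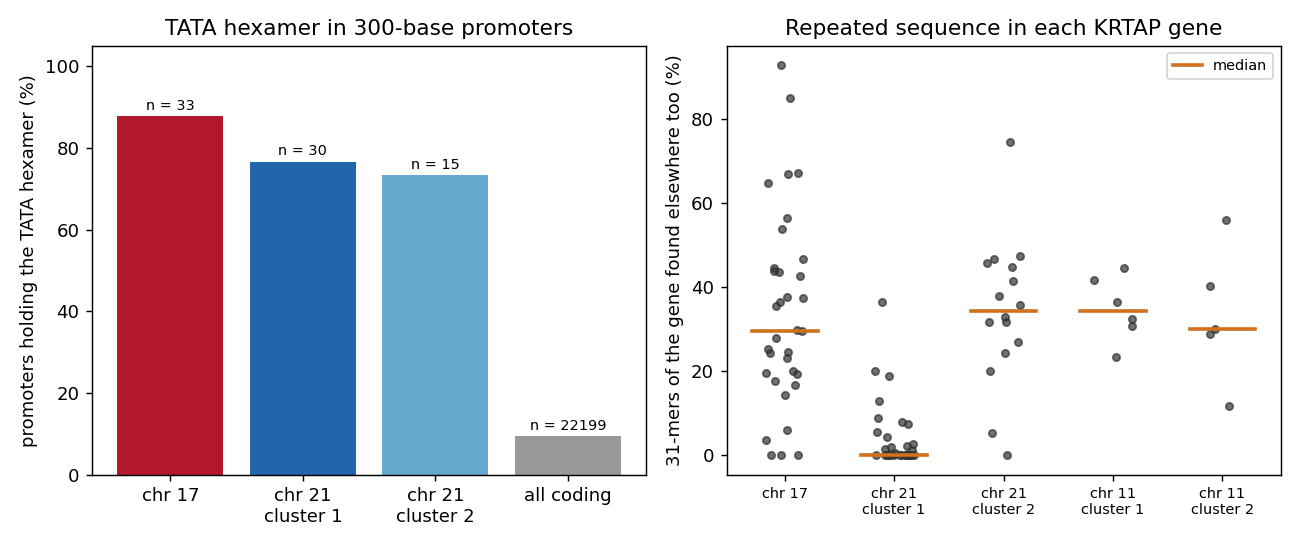
Left, percent of promoters (250 bases before to 50 after the start) that hold TATAAA on either strand, for KRTAP genes by cluster and for all protein-coding genes. Right, percent of each KRTAP gene's 31-base words that occur more than once in hg19, 1 point per gene and a line at the median. The promoter shares of chromosomes 17 and 21 (87.9%, and 76.7% and 73.3% by cluster) lie far above the 9.47% of all promoters, while the first chromosome 21 cluster has a median of 0 repeated words.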

How the data were processed

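MacroH2A1 ChIP and input of IMR90 cells were sequenced on an Illumina instrument, per the labels' protocols. The submitters' processing notes name CASAVA 1.7 and hg19. The aligner, duplicate treatment, segmentation program and scaling, not given in the sources used here, are unknown. The authors deposited a segmentation per ChIP replicate that gives each segment a log ratio of ChIP to input, read as log2 from its values, and a −log10 p. Depth is unknown.

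Segment blocks, without the gaps inside segments, were intersected with gene spans of GENCODE release 44 on GRCh37 in Python 3.11.15 with numpy 2.4.6. Of 20098 protein-coding genes, 19517 had at least 50% of their span in blocks of both replicates. Chromosome Y and segments without a value were left out. A gene's value is the length-weighted mean, and its covered share is that of bases enriched in both replicates. The interval sums were tested on simulated data. KRTAP genes under 500 kb apart formed a cluster.

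The members and lists were chosen with earlier results of these data known. No test was made, since the 2 replicates form 1 group. Named genes were the first, last, highest and lowest of each cluster, those beside boundaries or with differing calls, cluster neighbours, and the 2 highest and lowest of each hair list. Families were classed by textbook assignment, because the planned classes from protein sequence were not run. RefSeq promoters were placed in hg19 by exact match.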

Additional observations from a re-analysis of the deposited data

How the results depend on the processing

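Of 56 recomputed values of the 7 results, 5 moved. Many of the others could not. All 94 genes are assayed over 100% of their span, so other minimums of assayed bases change nothing. On chromosomes 17 and 21 the median equals the mean of both replicate medians, so leaving out 1 replicate shifts it by less than their SD. On chromosome 11 it does not equal that mean, and its shift from 0.29 to 0.21 or 0.39 was also below the SD of 0.12. By the mean over genes in place of the median, chromosome 21 lay at -0.54, a difference from chromosome 17 of -1.51, and by the mean over all assayed bases at -0.64, a difference of -1.60. Both means give weight to the second cluster of chromosome 21, which the median does not. With a log2 ratio above 0.5 required, 0 of the 11 genes on chromosome 11 were covered in place of 7, and 28 of the 34 on chromosome 17. With a −log10 p of at least 5 these counts were 7 and 28. The share of all measured genes under these stricter rules was not computed, and the 19.2% given above holds for the main rule only. The 6 genes lost on chromosome 17 lay in the weakest segment of replicate 2. With either replicate left out, the median ran from 0.91 to 1.03 on chromosome 17, from -0.80 to -0.70 on chromosome 21 and from 0.21 to 0.39 on chromosome 11. The difference then ran from -1.73 to -1.71, and 34, 0 and 8 genes were covered. No chromosome 21 gene was covered in either replicate alone, with whole segments or with a 5-kb window at the start; the stricter thresholds cannot raise a count of 0. No paired analysis was possible because the inputs, which share replicate numbers with the ChIP samples, were not analysed here on their own. Short peaks inside a segment are not seen, and 2 replicates limit the precision.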
